A study of Mus musculus with 54 samples.

Results

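The hypoxia response was described through 10 genes of 25149 in the coding gene tables, taken by symbol: the transcription factor genes Hif1a, Epas1 and Arnt, and the targets and pathway enzymes Vegfa, Adm, Fam162a, Bnip3, Egln1, Egln3 and Ndrg1. They were followed in 54 RNA-seq libraries from mouse ovarian follicles that had been grown outside the animal, each library made from 1 side of a single follicle. Follicles came from CD-1 females of 14 to 16 days, grew in alginate hydrogel to day 8 and then spent 12 h in maturation medium with serum, EGF and recombinant FSH, to which hCG, an LH receptor agonist, was or was not added. All 4 groups shared this strain, culture and basal medium. The putative unruptured side (no hCG, n = 15) and the putative ruptured side (no hCG, n = 14) came from follicles kept without hCG, with the sides told apart by where the antral cavity swelled. The unruptured side (post-hCG, n = 12) and the ruptured side (post-hCG, n = 13) came from follicles that had ruptured. Nothing in the labels ties a library to its follicle or culture, so the tests measure the spread between libraries, part of which may be technical.

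Library totals ran from 1497138 to 2834794 estimated counts, and the putative ruptured side had the lowest group median, 1744948, against 2362993, 2134115 and 2192224 for the putative unruptured, unruptured and ruptured sides. Although the tissue is labelled cumulus-oocyte complex, the authors describe removing this complex before sequencing. Summed over 7 oocyte markers, TPM (the authors' level per transcript length) had a median of at most 0.2 in every group. The highest sum was 131, in 1 putative unruptured library. The summed level of 7 theca cell markers was lower on the ruptured than the unruptured side in median and highest value, at 411 TPM (20.6 to 2369) against 26.3 TPM (5.01 to 473) for the ruptured side without hCG and 262 TPM (54.5 to 1224) against 6.01 TPM (2.61 to 45.55) post-hCG. In the same order, 6 immune markers summed to medians of 31.9, 2.965, 12.7 and 0.57 TPM and 5 smooth muscle markers to 33.3, 4.685, 4.18 and 1.29 TPM, both also lower on the ruptured sides, while 4 cumulus markers summed to 7.92, 9.665, 26.8 and 23.95 TPM. The sum of 8 endothelial markers had medians of 8.97, 4.145, 18.1 and 12.2 TPM, again in that order. The summed level of 6 granulosa markers had medians of 2611 TPM (801 to 5403) and 9096 TPM (3184 to 13499) in putative unruptured and putative ruptured libraries, and of 1387 TPM (881 to 1933) and 1150 TPM (750 to 1399) in their post-hCG counterparts, with the granulosa marker Amh at 0 in all libraries of both ruptured groups and the theca marker Cyp17a1 at 0 in all ruptured libraries post-hCG. The part of cell makeup in the differences described here was not tested. In such tissue pieces, fewer cells of a type and less RNA per cell cannot be told apart. The groups also filled separate runs of plate wells, so plate position and group cannot be told apart.

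Cells sense low oxygen through hypoxia-inducible factors, pairs of an oxygen-labile alpha subunit, encoded by Hif1a or Epas1, and the stable partner encoded by Arnt. With oxygen present, prolyl hydroxylases such as those encoded by Egln1 and Egln3 mark the alpha subunit for the von Hippel-Lindau ligase and the proteasome, so the amount of factor protein is set largely after translation and was not measured by these RNA libraries. When the factor accumulates it binds the hypoxia response element of its targets, and in the ovary this pathway is known for inducing vascular and metabolic genes around ovulation and luteinization.

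The core of the response element was looked for only in windows around start sites, and elements elsewhere were not searched. The promoters of 3 targets whose transcripts rose with hCG on the unruptured side, Fam162a, Bnip3 and Egln3, are shown with that of Hif1a. They span 250 bases before to 50 after a RefSeq start (GRCm38.p6) and were at chr16:36071512-36071811 (minus strand) for Fam162a, chr7:138909457-138909756 (minus strand) for Bnip3, chr12:54203825-54204124 (minus strand) for Egln3 and chr12:73907617-73907916 (plus strand) for Hif1a. Capitals mark the element's core, ACGTG or GCGTG, on either strand, so that CACGT and CACGC are the same cores read on the opposite strand and CACGTG is a core on both.
Fam162a: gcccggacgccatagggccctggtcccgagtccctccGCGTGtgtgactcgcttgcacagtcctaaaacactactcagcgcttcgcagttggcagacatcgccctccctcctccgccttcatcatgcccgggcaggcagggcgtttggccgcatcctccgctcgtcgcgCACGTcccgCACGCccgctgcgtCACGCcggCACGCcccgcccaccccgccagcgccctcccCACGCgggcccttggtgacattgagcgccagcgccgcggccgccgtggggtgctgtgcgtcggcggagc
Bnip3: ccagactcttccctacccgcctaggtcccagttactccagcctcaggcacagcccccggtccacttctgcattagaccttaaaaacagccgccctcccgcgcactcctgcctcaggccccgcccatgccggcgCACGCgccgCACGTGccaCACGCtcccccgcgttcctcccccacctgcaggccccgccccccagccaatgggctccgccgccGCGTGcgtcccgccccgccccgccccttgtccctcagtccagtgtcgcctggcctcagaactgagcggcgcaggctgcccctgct
Egln3: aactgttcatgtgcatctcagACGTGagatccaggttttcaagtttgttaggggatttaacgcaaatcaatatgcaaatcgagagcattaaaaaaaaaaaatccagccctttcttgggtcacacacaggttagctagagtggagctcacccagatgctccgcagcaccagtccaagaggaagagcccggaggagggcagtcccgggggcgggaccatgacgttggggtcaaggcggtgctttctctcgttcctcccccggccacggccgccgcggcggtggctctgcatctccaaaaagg
Hif1a: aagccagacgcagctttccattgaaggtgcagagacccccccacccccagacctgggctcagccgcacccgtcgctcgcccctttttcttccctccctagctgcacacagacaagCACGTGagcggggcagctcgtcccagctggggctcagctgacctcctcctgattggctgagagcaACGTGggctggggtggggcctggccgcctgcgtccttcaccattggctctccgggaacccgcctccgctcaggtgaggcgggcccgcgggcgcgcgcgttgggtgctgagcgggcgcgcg
Fam162a held 6 cores in its window, Bnip3 5, Hif1a 3 and Egln3 1, and 1 overlapping pair each in Bnip3 and Hif1a was the palindrome CACGTG. RefSeq windows were found for 8 of the 10 members, not including Epas1 and Ndrg1. Of these 8 genes, 8 held a core, but Vegfa only at the second of its 2 annotated starts. Its window at the start of the gene held 0 cores, and the second (chr17:46025114-46025413) lay inside the gene. For comparison, counted by window and not by gene, 43.8% of 32851 RefSeq promoters of this length held ACGTG or GCGTG on either strand. ACGTG was held by 19.6% and GCGTG by 32.4%. The members' windows were 54.7% (Egln3) to 86% (Egln1) G and C, and the comparison was not matched for base composition. A match describes these letters only.

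**Figure D1:**
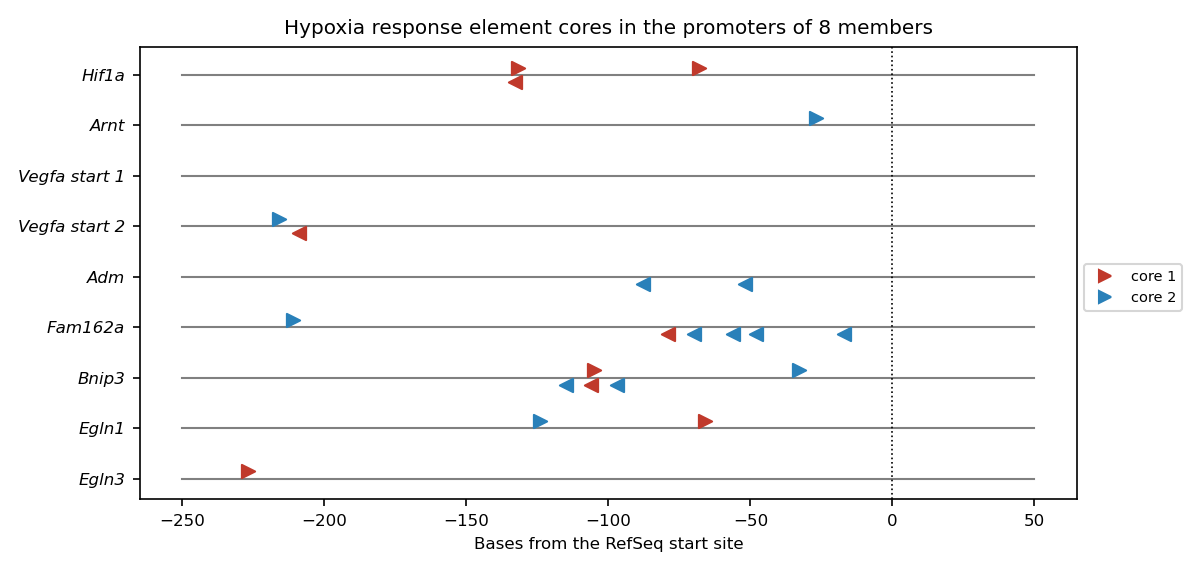
Positions of the hypoxia response element cores (red ACGTG, blue GCGTG) in bases from the RefSeq start, for 8 members. Arrows above a line are on the gene's strand and arrows below on the opposite strand. Fam162a has 6 and Bnip3 5, and the first Vegfa start has 0.

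The 10 genes did not move as a block (plots of the values by library and of the fold changes). A gene was called when edgeR's quasi-likelihood test on the counts gave a Benjamini-Hochberg false discovery rate (FDR) under 0.05, and log2FC is the log2 fold change of that test. Without hCG, 4 of the 8 tested members differed between sides, against 17.5% of 9063 tested genes, with Hif1a and Epas1 higher on the putative ruptured side (8.78% of genes were higher) and Egln1 and Ndrg1 lower (8.75% were lower). Post-hCG, 6 of 8 differed, against 21.0% of 8585 genes, and these were 1 higher on the ruptured side, Epas1, and 5 lower, Arnt, Fam162a, Bnip3, Egln3 and Ndrg1 (9.88% of genes were higher and 11.1% lower). On the unruptured side hCG raised 6 of 9 tested members, Arnt, Adm, Fam162a, Bnip3, Egln3 and Ndrg1, against 52.9% of 9320 genes called and 25.3% called higher. On the ruptured side 4 of 6 were called against 60.0% of 8531 genes, near the background, with Bnip3 and Ndrg1 higher (29.6% of genes) and Hif1a and Epas1 lower (30.4% of genes). The side difference itself changed with hCG for 3 of 9 tested members, Hif1a, Fam162a and Egln3, against 8.67% of 10013 genes in the interaction of side and medium, all 3 with a lower value on the ruptured side post-hCG than the sides without hCG would give (4.56% of genes went this way and 4.10% the other).

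The number of members tested varied because genes under edgeR's expression filter were left out. Vegfa had at most 16 counts in any library and was left out of all 5 comparisons, Adm and Egln1 of 2 each and Egln3 of 1. Leaving out 1 library at a time, between 2 and 4 members were called between the sides without hCG (2 without putative unruptured replicate 6, where Egln1 and Ndrg1 were lost), between 5 and 7 between the sides post-hCG, 5 or 6 for hCG on the unruptured side and 4 for hCG on the ruptured side.

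The direction of calls over all genes depended on scaling: in place of 47.0% of the genes called between the sides post-hCG, 18.2% were higher on the ruptured side when only library totals were used and 8.99% with limma on TPM, and the median log2FC over all genes moved from 0.01 to -0.13 and -0.21. The share went from 50.1% to 40.0% between the sides without hCG, from 47.8% to 27.8% for hCG on the unruptured side (median log2FC -0.03 to -0.24) and from 49.4% to 24.7% for hCG on the ruptured side (median -0.0013 to -0.32) with library totals. For the last, limma gave 34.3% and a median of -0.14, and for hCG on the unruptured side it moved the other way, to 57.6% and a median of 0.04. The share went from 47.4% to 25.8% (median -0.01 to -0.11) with library totals and to 11.1% (median -0.19) with limma for the interaction.

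**Figure D2:**
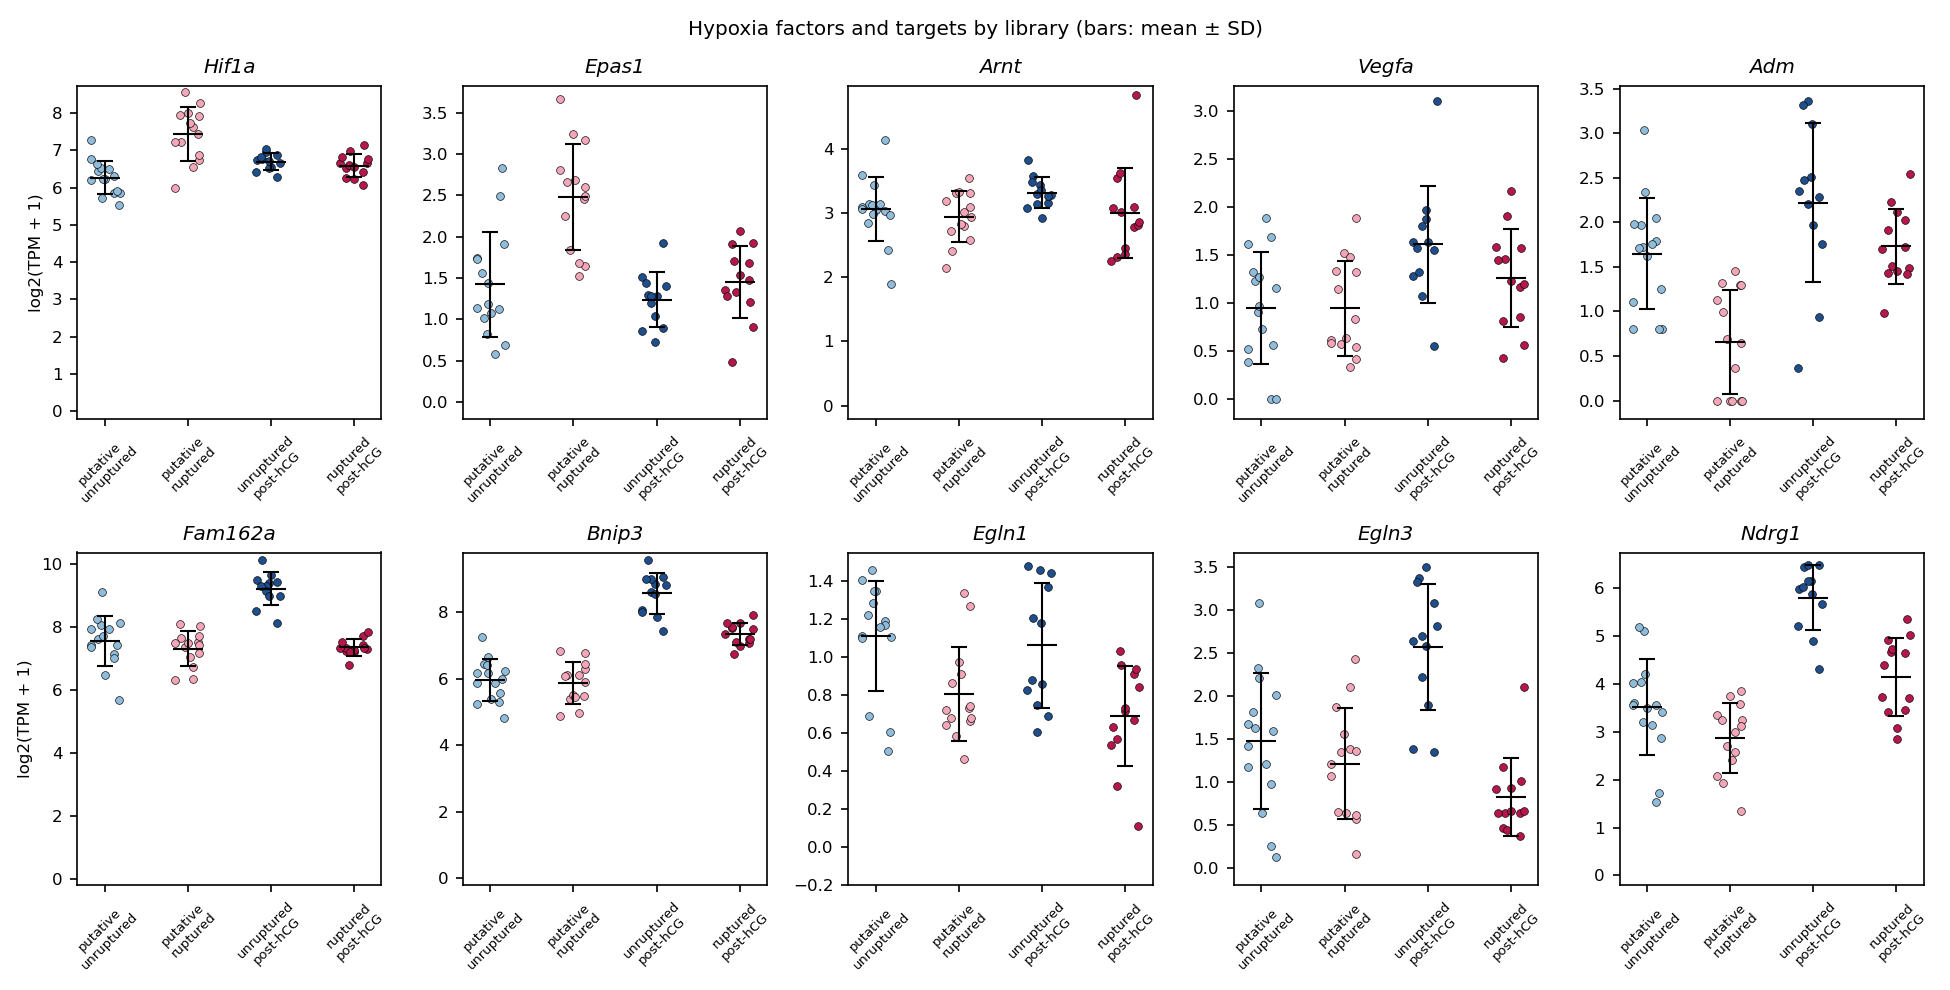
Level of each of the 10 genes, log2(TPM + 1), with 1 point per library, by side and medium; bars are mean ± SD (n = 15, 14, 12 and 13 from left to right). Hif1a is highest on the putative ruptured side, where its median is 184 TPM, and Fam162a, Bnip3, Egln3 and Ndrg1 on the unruptured side post-hCG.

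Hif1a, the oxygen-labile alpha subunit of the factor in most tissues (chr12:73901375-73947530, plus strand, GRCm38), was the most abundant of the 3 factor genes in TPM. Putative unruptured libraries held 45.5 to 153 TPM (median 73.8) and putative ruptured libraries 63.1 to 381 TPM (median 184). Post-hCG, unruptured libraries held 76.7 to 131 TPM (median 104) and ruptured libraries 66.05 to 140 TPM (median 95.6). The putative ruptured side was thus the high group, with 8 of 14 libraries above every putative unruptured library although the groups overlapped, and the post-hCG sides lay in between with a narrow spread. On log2(TPM + 1), the putative ruptured side stood above the next group by more than the pooled SD, and the other 3 groups in order (unruptured post-hCG, ruptured post-hCG, putative unruptured) differed from their neighbours by less. By edgeR, Hif1a was 2.45-fold higher on the putative ruptured than the putative unruptured side (log2FC 1.29 ± 0.19 SE, FDR 1.33e-05), and called in 11 of 11 alternative analyses. Between the post-hCG sides the log2FC was 0.23 (95% interval -0.02 to 0.48, FDR 0.208), and it was -0.10 with limma on TPM, so no direction is given. With hCG, Hif1a fell on the ruptured side (log2FC -0.75 ± 0.19 SE, FDR 0.000933) but not past the threshold on the unruptured side (0.30, 95% interval 0.02 to 0.58, FDR 0.0754 by edgeR). The last was called in limma, with all 3 settings, and without putative unruptured replicate 5, which had the group's highest level (153 TPM). The change in the side difference with hCG was -1.06 ± 0.24 SE (FDR 0.00277). The counts of Hif1a had fractions in 42 of 54 libraries, as when reads are split between features, and their source is not given. The granulosa marker sum was highest on the putative ruptured side too, and putative ruptured replicate 5 had the lowest Hif1a (63.1 TPM) and the lowest granulosa sum (3184 TPM) of its group. On the unruptured side the medians went opposite ways with hCG, from 2611 to 1387 TPM for the granulosa sum and from 73.8 to 104 TPM for Hif1a. The part of granulosa content was not tested.

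Epas1, the alternative alpha subunit known for its role in endothelium (chr17:86753700-86833410, plus strand), was scarcer, at medians of 1.28 TPM (0.50 to 6.10) and 4.835 TPM (1.87 to 11.7) on the putative unruptured and putative ruptured sides. Post-hCG it had medians of 1.435 TPM (0.66 to 2.79) and 1.77 TPM (0.40 to 3.20) on the unruptured and ruptured sides. As with Hif1a, the putative ruptured side was highest and stood above the next group by more than the pooled SD, with 14 of 14 libraries above the putative unruptured median and the 2 groups overlapping. The 3 other groups did not differ beyond their spread. Epas1 was 2.79-fold higher on the putative ruptured side (edgeR log2FC 1.48 ± 0.33 SE, FDR 0.00239), and 13 of 13 ruptured post-hCG libraries lay under the median of the putative ruptured side (log2FC for hCG -1.33 ± 0.29 SE, FDR 0.000306). Both calls held in 11 of 11 alternatives. Between the post-hCG sides Epas1 was higher on the ruptured side (log2FC 0.65 ± 0.23 SE, edgeR FDR 0.0456), a call that was lost in 7 of 11 alternatives and on leaving out any of 18 of the 25 libraries (FDR 0.00858 to 0.0847). On the unruptured side hCG gave -0.51 (95% interval -1.15 to 0.13, FDR 0.191), and the interaction of -0.82 had an FDR of 0.274 by edgeR.

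Arnt, the stable partner of both alpha subunits (chr3:95434388-95497240, plus strand), differed little. It had medians of 7.38 TPM (2.72 to 16.65) and 6.87 TPM (3.42 to 10.7) without hCG, on the putative unruptured and putative ruptured sides. Post-hCG they were 8.79 TPM (6.57 to 13.2) and 6.26 TPM (3.75 to 27.5) on the unruptured and ruptured sides, and the 27.5 TPM of ruptured replicate 11 came from 65 counts. The groups overlapped and no neighbours in the order of means differed beyond the pooled SD. By edgeR, Arnt was lower on the ruptured side post-hCG (log2FC -0.34 ± 0.09 SE, FDR 0.00724) and higher with hCG on the unruptured side (0.33 ± 0.12, FDR 0.0151), calls lost in 4 and 5 of 11 alternatives. Without hCG the log2FC between sides was -0.12 (95% interval -0.36 to 0.12, FDR 0.549), and with hCG on the ruptured side it was 0.13 (FDR 0.317; -0.20 with library totals alone).

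Of the secreted products, Vegfa, the vascular growth factor (chr17:46016993-46032369, minus strand), was at the limit of detection. Its counts ran from 0 to 12 (median 7) and 1 to 7 (median 4) in the putative unruptured and putative ruptured libraries, and from 2 to 16 (median 9) and 2 to 11 (median 6) in the unruptured and ruptured libraries post-hCG. In TPM the medians were 0.96 (0.00 to 2.70), 0.67 (0.26 to 2.69), 2.04 (0.47 to 7.61) and 1.34 (0.35 to 3.49), so the unruptured side post-hCG was highest and all groups overlapped. Fitted with no filter by edgeR, hCG on the unruptured side gave a log2FC of 0.71 (FDR 0.0758), which passed in DESeq2 and in limma with 3 settings (FDR 0.0166 to 0.0466). Hif1a's higher level on the putative ruptured side was not accompanied by a Vegfa difference that this depth could show, at -0.25 without a filter (FDR 0.689 by edgeR; 0.17 by limma with a pseudocount of 0.1).

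Adm, a vasodilator peptide gene (chr7:110627661-110629820, plus strand), had medians of 2.29 TPM (0.74 to 7.20) and 0.59 TPM (0.00 to 1.73) on the putative unruptured and putative ruptured sides. Post-hCG the medians were 3.995 TPM (0.29 to 9.27) and 2.26 TPM (0.97 to 4.83). The putative ruptured side was lowest, with 5 of 14 libraries at 0 and 8 of 14 below every putative unruptured library. This gene did not pass the filter in 2 comparisons, and with no filter edgeR gave -1.70 between the sides without hCG (FDR 0.00934) and 1.81 for hCG on the ruptured side (FDR 0.000103), both from 35 counts in all on the putative ruptured side and past the threshold in 5 of 5 alternatives. With hCG on the unruptured side the log2FC was 0.83 ± 0.35 SE (edgeR FDR 0.0462), lost in 6 of 9 alternatives and on leaving out any of 18 of 27 libraries (FDR 0.00560 to 0.121). Between the post-hCG sides it was -0.71 (FDR 0.107 by edgeR), with a call only under library totals (FDR 0.0405) and on leaving out ruptured replicate 13 or unruptured replicate 3, the lowest FDR being 0.0283.

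Fam162a, which encodes a hypoxia-responsive mitochondrial protein (chr16:36043761-36071594, minus strand), was the member that told the post-hCG sides apart in every library. Without hCG, putative unruptured libraries held 51.0 to 558 TPM (median 198) and putative ruptured libraries 79.6 to 277 TPM (median 175). Post-hCG, unruptured libraries held 280 to 1139 TPM (median 634) and ruptured libraries 110 to 232 TPM (median 159). All 13 ruptured libraries lay below all 12 unruptured libraries, whereas the sides without hCG overlapped, as did nearly all genes there (0.0304% of them did not overlap). This was the only 1 of the 10 members not to overlap in that comparison, against 1.15% of 9624 genes that averaged 1 TPM or more. By edgeR the ruptured side was 3.37-fold lower (log2FC -1.75 ± 0.17 SE, FDR 4.84e-08, 11 of 11 alternatives), and hCG raised the unruptured side 2.95-fold (1.56 ± 0.27, FDR 2.32e-05, 11 of 11). With hCG on the ruptured side the log2FC was 0.06 (95% interval -0.28 to 0.40, FDR 0.789), and its sign changed to -0.26 with library totals. Without hCG the sides had a log2FC of -0.24 (95% interval -0.77 to 0.28, FDR 0.591), and the interaction was -1.50 ± 0.33 SE (edgeR FDR 0.00242).

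Bnip3, a receptor that marks mitochondria for autophagy (chr7:138890836-138909519, minus strand), rose with hCG on both sides. Levels were 27.4 to 152 TPM (median 63.1) in putative unruptured and 28.3 to 114 TPM (median 62.85) in putative ruptured libraries. Post-hCG they were 172 to 756 TPM (median 422) in unruptured and 107 to 240 TPM (median 161) in ruptured libraries. The 4 groups fell in 3 steps, unruptured above ruptured above both sides without hCG, with neighbours differing by more than the pooled SD except for the sides without hCG. All 12 unruptured post-hCG libraries were above all 15 putative unruptured libraries (5.08% of genes did not overlap here), and 12 of 13 ruptured libraries were above all 14 putative ruptured libraries. By edgeR, hCG raised Bnip3 5.91-fold on the unruptured side (log2FC 2.56 ± 0.27 SE, FDR 4.21e-09) and 3.01-fold on the ruptured side (1.59 ± 0.22, FDR 2.62e-07), both called in 11 of 11 alternatives. The ruptured side was 2.01-fold lower than the unruptured side post-hCG (-1.01 ± 0.21, FDR 0.00104, 11 of 11 alternatives). Without hCG the difference between sides was -0.03 (95% interval -0.55 to 0.48, FDR 0.954), and the interaction of -0.97 had an FDR of 0.0705 by edgeR. Bnip3's counts had fractions in all 54 libraries, and the source of the fractions is not given, so its values are uncertain to that extent.

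Egln1, the prolyl hydroxylase mainly responsible for alpha subunit turnover in normal oxygen (chr8:124908587-124949324, minus strand), was low in every group, with 1 to 28 counts per library. Its medians were 1.25 TPM (0.42 to 1.74), 0.655 TPM (0.38 to 1.52), 1.05 TPM (0.52 to 1.79) and 0.64 TPM (0.08 to 1.04) on the putative unruptured, putative ruptured, unruptured and ruptured sides. Both ruptured sides had the lower medians and all groups overlapped. Without hCG it was lower on the putative ruptured side (edgeR log2FC -0.61 ± 0.20 SE, FDR 0.0292), called in 6 of 7 alternatives, with an FDR of 0.0540 without putative unruptured replicate 6. Post-hCG it was under the filter and gave -0.52 without one (FDR 0.168), and with hCG on the unruptured side it gave -0.17 (95% interval -0.59 to 0.25, FDR 0.524 by edgeR).

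Egln3, a hydroxylase that is itself a strong hypoxia target (chr12:54178981-54203860, minus strand), had medians of 2.01 TPM (0.09 to 7.45) and 1.42 TPM (0.12 to 4.38) on the putative unruptured and putative ruptured sides. Post-hCG they were 5.34 TPM (1.55 to 10.3) and 0.58 TPM (0.29 to 3.31). The unruptured side post-hCG was highest and the ruptured side lowest, with 12 of 13 ruptured libraries below every unruptured library and ruptured replicate 13 (3.31 TPM) as the exception. By edgeR the ruptured side was 5.29-fold lower (log2FC -2.40 ± 0.34 SE, FDR 9.00e-06) and hCG raised the unruptured side 2.30-fold (1.20 ± 0.40, FDR 0.0133), each in 11 of 11 alternatives. Without hCG the sides gave -0.58 (95% interval -1.44 to 0.29, FDR 0.412), and the interaction was -1.83 ± 0.59 SE (edgeR FDR 0.0400), called in 9 of 10 alternatives and lost with no filter (FDR 0.0894). With hCG on the ruptured side, where it was under the filter, it gave -0.61 (FDR 0.243 by edgeR without the filter).

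Ndrg1, a stress-responsive gene with roles in differentiation and lipid handling (chr15:66929318-66969640, minus strand), rose with hCG on both sides and was lower on the ruptured side. Its medians were 10.7 TPM (1.89 to 35.6) and 7.325 TPM (1.53 to 13.4) on the putative unruptured and putative ruptured sides. Post-hCG they were 63.2 TPM (18.8 to 88.8) and 20.2 TPM (6.24 to 39.9) on the unruptured and ruptured sides. The unruptured side post-hCG stood above the next group by more than the pooled SD, and 10 of its 12 libraries lay above every putative unruptured library. By edgeR, hCG raised Ndrg1 5.59-fold on the unruptured side (log2FC 2.48 ± 0.32 SE, FDR 2.34e-07) and 2.95-fold on the ruptured side (1.56 ± 0.24, FDR 2.25e-06), and the ruptured side was 3.60-fold lower than the unruptured side post-hCG (-1.85 ± 0.24, FDR 3.14e-06). Each of these 3 calls held in 11 of 11 alternatives. Without hCG it was lower on the putative ruptured side at the edge of the threshold (-0.92 ± 0.33 SE, edgeR FDR 0.0488), and this was lost in 6 of 11 alternatives and on leaving out any of 19 of 29 libraries (FDR 0.0253 to 0.106). The interaction of -0.92 had an FDR of 0.158 by edgeR.

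**Figure D3:**
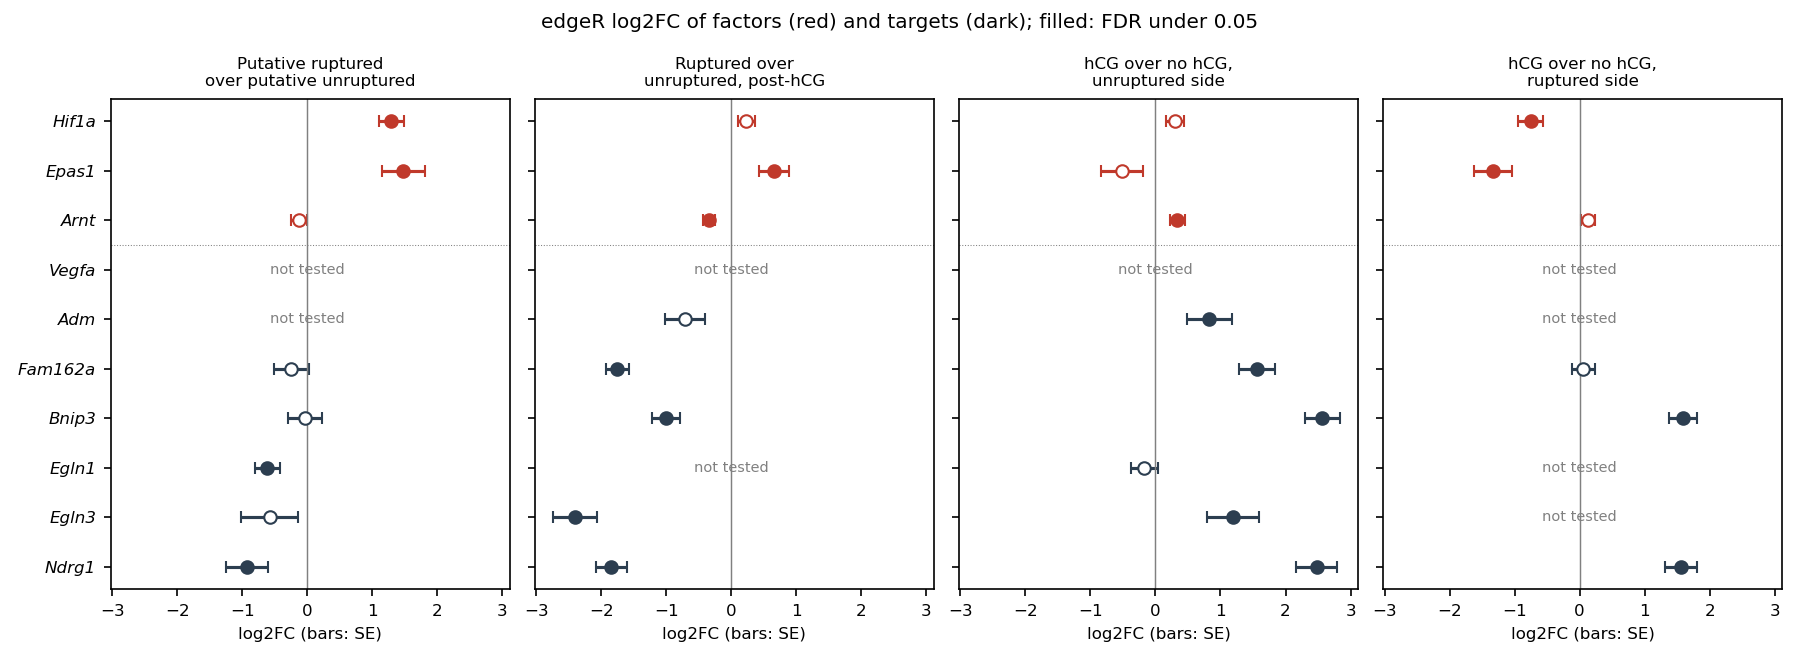
edgeR log2FC (points, bars are SE) of the factor genes (red, above the dotted line) and of the targets and enzymes (dark, below it) in 4 comparisons. Filled points have an FDR under 0.05, and members under the expression filter are marked as not tested. Hif1a (1.29) and Epas1 (1.48) lie to the right in the first panel, while Fam162a, Bnip3, Egln3 and Ndrg1 lie to the left in the second and to the right in the third.

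Factors and targets were set against each other directly by log2 ratios of TPM + 1 within each library (2-sided permutation test, 100000 resamples, 12 tests with Benjamini-Hochberg adjustment). Vegfa relative to Hif1a was lower on the putative ruptured side, with a mean log2 ratio of -6.49 ± 0.90 (SD, n = 14) against -5.31 ± 0.59 (SD, n = 15), a difference of -1.18 (adjusted p 0.00174, permutation test). With hCG on the ruptured side the ratio rose to -5.33 ± 0.50 (SD, n = 13), by 1.16 (adjusted p 0.00144, permutation test). With Vegfa at 0 to 16 counts and its mean log2(TPM + 1) at 0.951 and 0.946 on the putative unruptured and putative ruptured sides, the difference without hCG restates that of Hif1a (means 6.27 and 7.44) and is no separate result on Vegfa. This difference did not pass with a pseudocount of 0.1 (-1.01, adjusted p 0.128, permutation test). With hCG on the ruptured side, mean Hif1a fell from 7.44 to 6.59 while mean Vegfa went from 0.946 to 1.26. Vegfa itself was not called there by edgeR without a filter (FDR 0.0837), so that ratio is no separate result on Vegfa either. Between the hydroxylases, Egln3 relative to Egln1 was 1.51 ± 0.63 (SD, n = 12) on the unruptured side post-hCG, higher than on the ruptured side (0.13 ± 0.53, n = 13; difference of ruptured minus unruptured -1.38, adjusted p 0.00048, permutation test) and than on the putative unruptured side (0.36 ± 0.75, n = 15; difference 1.15, adjusted p 0.00144, permutation test). With hCG on the unruptured side, mean log2(TPM + 1) went from 1.47 to 2.57 for Egln3 and from 1.11 to 1.06 for Egln1. On the ruptured side post-hCG these means were 0.82 and 0.69. With Egln1 at 1 to 28 counts per library, both ratio differences mainly restate those of Egln3 and are no separate result on Egln1. Hif1a relative to Epas1 rose by 0.61 with hCG on the unruptured side (adjusted p 0.0435, permutation test), from 4.84 ± 0.84 (SD, n = 15) to 5.45 ± 0.26 (SD, n = 12), a call that was lost with the other 3 ways of forming the ratio. The other 7 ratios did not pass. These comparisons share groups with one another.

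Theca marker sums are set beside some targets here for single libraries, picked for extreme theca sums or target levels. None is from the putative ruptured side, and no relation between theca sum and targets was tested within groups. Putative unruptured replicate 7 had both the highest theca marker sum of its group (2369 TPM) and the highest Fam162a (558 TPM) and Egln3 (7.45 TPM), and replicate 14 the lowest theca sum (20.6 TPM) and the lowest Fam162a (51.0 TPM), Bnip3 (27.4 TPM) and Egln3 (0.09 TPM). Post-hCG, the 2 ruptured libraries with the highest theca sums, replicates 13 (45.55 TPM) and 4 (44.8 TPM), had the highest Fam162a of their group (232 and 210 TPM). The unruptured library with the lowest theca sum, replicate 8 (54.5 TPM), nevertheless had 513 TPM of Fam162a, and replicate 2 (76.8 TPM) had the group's lowest Fam162a, Bnip3, Egln3 and Ndrg1. The part of theca content in the side differences was not tested.

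Within groups, 16 correlations of log2(TPM + 1) across libraries were computed, for Fam162a with Bnip3, Egln3, Ndrg1 and Hif1a in each of the 4 groups, all chosen after their values were seen. Adjustment over these 16 does not cover that choice, so the p-values are descriptive only. In the putative unruptured side Fam162a followed Bnip3 (Pearson r 0.806, adjusted permutation p 0.0032; Spearman rho 0.811, adjusted permutation p 0.00528; n = 15) and Egln3 (r 0.852, adjusted permutation p 0.00192; rho 0.804, adjusted permutation p 0.00528; n = 15). Without the 2 libraries farthest from the Fam162a median, r was 0.728 and 0.696. The other 14 did not pass adjustment, among them the 4 of Hif1a with Fam162a, with r from -0.07 to 0.60. Points in these plots share the library's makeup, and the groups form separate clusters, so no pooled r is tested.

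**Figure D4:**
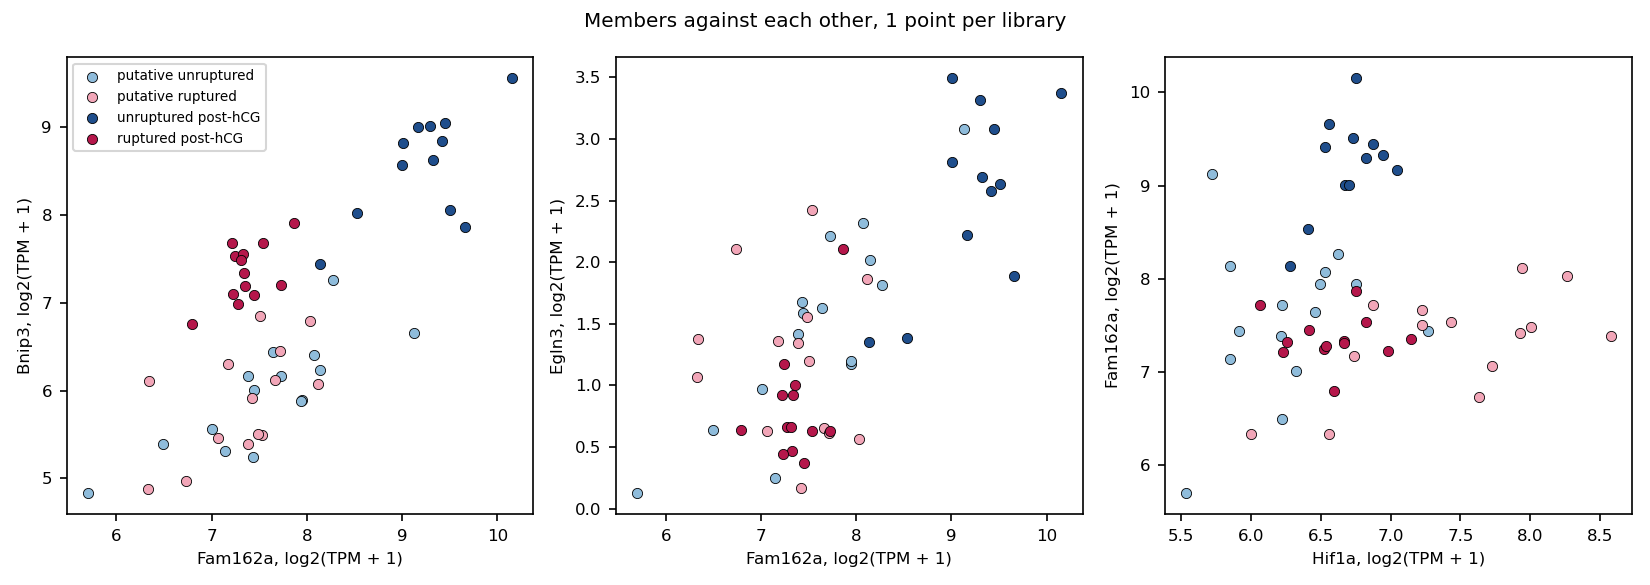
Members against each other on log2(TPM + 1), 1 point per library and coloured by group (54 libraries). Fam162a and Bnip3 are both highest on the unruptured side post-hCG (dark blue), while in the right panel the libraries highest in Hif1a (pink, putative ruptured side) are not those highest in Fam162a.

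The wider pathway was read from gene lists, given by their counts and median log2FC beside the same over all genes; whether they moved with the members was not tested. Of other hypoxia targets outside glycolysis, 14 of 22 tested genes were lower on the ruptured side post-hCG and 1 higher (median log2FC -0.65, against 0.01 over all genes, of which 11.1% were lower and 9.88% higher), and 17 of 21 rose with hCG on the unruptured side while 1 fell (median 0.96 against -0.03, with 25.3% of all genes higher and 27.6% lower). On the ruptured side 9 of 20 rose and 4 fell with hCG (median 0.25 against -0.0013, with 29.6% of all genes higher and 30.4% lower), and without hCG 1 was higher and 3 lower of 22 (median -0.13 against -0.0062, with 8.78% of all genes higher and 8.75% lower). Hilpda, a lipid droplet protein gene (log2FC -1.45 ± 0.20 SE), P4ha2, a collagen prolyl hydroxylase gene (-1.42 ± 0.18), and Ero1l, an oxidase of the endoplasmic reticulum (-1.41 ± 0.21), had among the most negative log2FC of the list on the ruptured side post-hCG, and Lox, which crosslinks collagen, was higher there (1.16 ± 0.26). Car12, a carbonic anhydrase, rose with hCG from a median of 18.15 TPM (6.14 to 87.15) to 659 TPM (254 to 1006) on the unruptured side and from 42.9 TPM (7.20 to 127) to 325 TPM (203 to 657) on the ruptured side, with no overlap on either side (7.04% of all genes did not overlap on the ruptured side). Loxl2, a lysyl oxidase, rose by 2.79 ± 0.26 and 3.63 ± 0.27 (log2FC ± SE) on the unruptured and ruptured sides. Tfrc, the transferrin receptor, rose by 2.11 ± 0.22 and 1.92 ± 0.18 on the same sides. Kdm3a, a histone demethylase, fell with hCG on both (-0.54 ± 0.13 and -0.88 ± 0.13), as did Plod1 (-0.90 ± 0.15) and Hmox1 (-0.81 ± 0.16) on the ruptured side. Without hCG, Plod2, a lysyl hydroxylase, was higher on the putative ruptured side (1.10 ± 0.17), and P4ha2 (-0.80 ± 0.27) and Angptl4 (-0.62 ± 0.16) were lower.

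Of 19 glycolytic hypoxia targets tested post-hCG, 15 were lower on the ruptured side and 2 higher (median -0.60 against 0.01, with 11.1% of all genes lower and 9.88% higher), and the same list had 18 of 19 higher with hCG on the unruptured side (median 1.50, with 25.3% of all genes higher) and 17 higher and 1 lower with hCG on the ruptured side (median 1.06, with 29.6% of all genes higher and 30.4% lower). Without hCG 2 of 18 were lower on the putative ruptured side (8.75% of all genes were), Gpi1 (-0.67 ± 0.22) and Pfkl (-0.62 ± 0.21). The glucose transporter gene Slc2a3 (-2.19 ± 0.27) and the lactate transporter gene Slc16a3 (-1.30 ± 0.14) had the most negative log2FC on the ruptured side post-hCG, whereas Pfkfb3 (0.55 ± 0.09) and Pfkfb4 (0.63 ± 0.14), which make the allosteric activator of phosphofructokinase, were higher there. Pfkfb3 (2.76 ± 0.17 and 2.87 ± 0.14) and hexokinase Hk2 (2.42 ± 0.16 and 2.58 ± 0.21) were among the genes that hCG raised most on the unruptured and ruptured sides, and Aldoc fell on the ruptured side (-0.82 ± 0.24).

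Of 11 regulators of the pathway tested, 0 differed between the sides without hCG by edgeR (0 also at an unadjusted p under 0.05), and 0 by DESeq2 (1 at an unadjusted p under 0.05) and by limma (0), where edgeR called 17.5% of all genes. Post-hCG 1 was higher on the ruptured side, Arnt2, an alternative partner subunit (0.42 ± 0.13), and 2 were lower, Elob, a subunit of the von Hippel-Lindau ligase (-0.71 ± 0.12), and Vhl itself (-0.51 ± 0.14), so that 3 of 11 were called against 21.0% of all genes. With hCG 3 of the regulators rose on the unruptured side and 2 of them on the ruptured side, of which Arnt2 rose by 2.51 ± 0.21 and 3.11 ± 0.20 and the prolyl hydroxylase gene Egln2 by 0.60 ± 0.10 and 0.88 ± 0.11. Elob was the third to rise on the unruptured side, by 0.44 ± 0.13. Crebbp, a coactivator of the factors, fell on both (-0.22 ± 0.08 and -0.17 ± 0.07), and Vhl fell on the ruptured side (-0.49 ± 0.13). With hCG 4 of 11 were thus called on each side, against the 52.9% and 60.0% of all genes called on the unruptured and ruptured sides. Arnt2 thus went from medians of 1.00 TPM (0.25 to 8.24) and 0.76 TPM (0.05 to 17.7) without hCG to 4.88 TPM (1.69 to 9.43) and 5.48 TPM (2.54 to 12.8) post-hCG, on the unruptured and ruptured sides.

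Of 13 genes for VEGF and adrenomedullin ligands and receptors, at most 5 were tested in any comparison. Nrp1, a VEGF coreceptor, was lower on the ruptured side in both media (-1.41 ± 0.28 without hCG and -0.89 ± 0.22 post-hCG) and fell with hCG on the unruptured side (-1.06 ± 0.22). Nrp2 was lower on the ruptured side post-hCG (-1.07 ± 0.32) and fell with hCG on that side (-1.13 ± 0.27). Ramp1, an accessory subunit of the calcitonin-like receptor family, rose with hCG on the ruptured side (3.57 ± 0.24) from a median of 0.575 TPM (0.00 to 1.14) to 5.52 TPM (3.07 to 10.6), with no overlap (7.04% of genes did not overlap). On the unruptured side, where it was under the filter and not tested, its medians were 0.40 TPM (0.10 to 1.14) without hCG and 4.285 TPM (0.85 to 6.49) post-hCG. It was higher on the ruptured than the unruptured side post-hCG (0.84 ± 0.21), while Ramp2, which forms an adrenomedullin receptor, was lower (-0.68 ± 0.20).

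**Figure D5:**
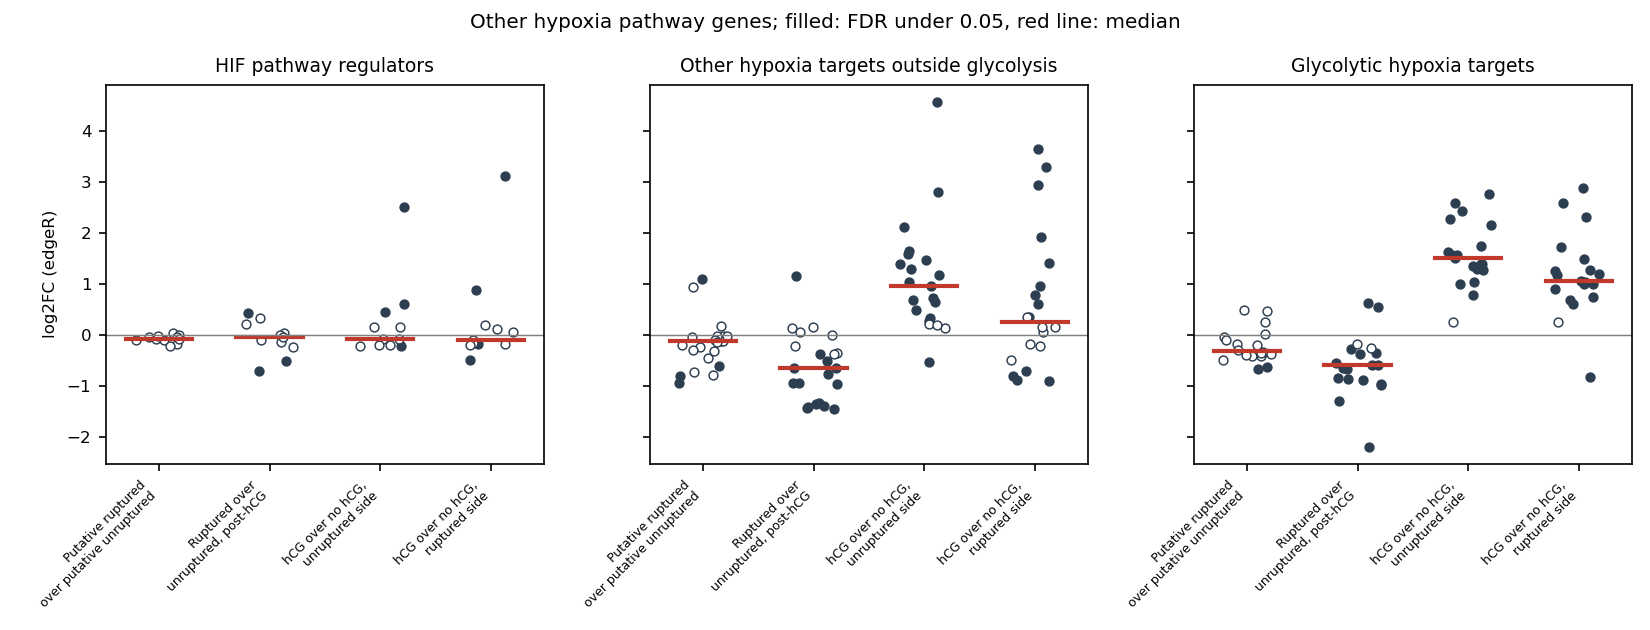
edgeR log2FC of each tested gene in 3 lists (HIF pathway regulators, hypoxia targets outside glycolysis, glycolytic targets) for 4 comparisons; filled points passed FDR 0.05 and the red line is the list median. The glycolytic list has medians of -0.60 post-hCG between sides and 1.50 for hCG on the unruptured side.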

How the data were processed

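The authors made cDNA from single follicle sides by Smart-Seq2, sequenced it and, in a public workflow, used HISAT2 for alignment to the GRCm38 genome. The estimated counts per gene and library, fractions included, were made by the authors from those alignments and used as deposited. The deposited TPM values were scaled by the authors for transcript length and library. The counting program, the annotation and whether either table precedes the ComBat-seq batch correction of the study are not given in the sources used here, nor are the batches, so no within-batch value could be had.

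Counts were rounded, filtered (edgeR, minimum count 10, minimum total 15), TMM-scaled and fitted over all genes with edgeR 4.0.16 in R 4.3.3 (robust quasi-likelihood, Benjamini-Hochberg FDR 0.05), in 4 comparisons of group pairs and for the interaction of side and medium. The interaction is the side difference post-hCG minus that without hCG. The scripts were tested on simulated data. Alternatives were RLE size factors, library totals, no filter, a mean of at least 20 counts, thinning to the smallest total, DESeq2 1.42.0, limma 3.58.1 on log2(TPM + 1) or (TPM + 0.1), all groups in one fit, a replicate block and leaving out each library. Leaving out each library was done for the 4 comparisons of group pairs only, so the interaction calls were not checked in this way. All groups in one fit was no alternative for the interaction, whose main fit already held all groups. Fold changes on log2(TPM + 1) understate low genes. Ratios and correlations used permutation tests in Python 3.11.15 with scipy 1.17.1.

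The members, lists and rules were chosen with earlier results of these data known. In each list and comparison the text names up to 3 genes per direction with the largest log2FC past the FDR threshold and a mean of at least 10 CPM in the higher group. For Hif1a, Epas1 and Vegfa it names the 3 genes of most similar pattern. Positions are from GENCODE M21 (GRCm38) and promoters from RefSeq (GRCm38.p6). Depth ranged from 1497138 to 2834794 counts, and genes under about 10 counts per library, such as Vegfa, carry large counting error. No columns were left unmatched.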

Additional observations from a re-analysis of the deposited data

Results flagged for a closer look

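The side difference (ruptured over unruptured) differed between media for 3 of the 9 tested hypoxia genes, against 8.67% of 10013 genes, in the interaction term of edgeR (quasi-likelihood, Benjamini-Hochberg FDR), with 54 libraries in 1 fit. For Hif1a the side log2FC was 1.29 without hCG and 0.23 post-hCG, and the interaction was -1.06 ± 0.24 (SE, FDR 0.00277). For Fam162a the side log2FC was -0.24 without hCG and -1.75 post-hCG, and the interaction was -1.50 ± 0.33 (SE, FDR 0.00242). For Egln3 they were -0.58 and -2.40, with an interaction of -1.83 ± 0.59 (SE, FDR 0.0400). The Egln3 call held in 9 of 10 alternatives and was lost in edgeR with no filter (FDR 0.0894). Ruptured post-hCG libraries had a median of 5 Egln3 counts.

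Among the other genes of the pathway lists named by the same test, Slc2a3 had an interaction of -2.01 ± 0.39 (SE, FDR 0.000491), Higd1a, a mitochondrial hypoxia gene, of -1.30 ± 0.25 (FDR 0.000534) and Ero1l of -1.11 ± 0.36 (FDR 0.0413) by edgeR. Slc16a3 had -1.09 ± 0.34 (FDR 0.0330), Plod1 -1.09 ± 0.29 (FDR 0.0114), Aldoc -1.07 ± 0.35 (FDR 0.0432) and Elob -0.63 ± 0.19 (FDR 0.0272) in the same edgeR fit. The opposite direction was seen for Lox, at 1.88 ± 0.52 (SE, FDR 0.0153), and Angptl4, at 0.76 ± 0.20 (FDR 0.0102). Because groups held more than 10 libraries, no library was screened as an outlier.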

How the results depend on the processing

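Of 457 values recomputed under alternatives, 405 kept their direction and side of the threshold, 30 lost a call, 13 gained one and 9 reversed; of 837 values with 1 library left out these were 767, 56, 3 and 11. The genes called between the sides without hCG went from 1589 to 1054, 1051 and 1034 with limma on log2(TPM + 1), log2(TPM + 0.1) and without a filter, and to 2041 with DESeq2 and 1976 with all 4 groups in 1 fit. Reversals were Vegfa between the sides without hCG (0.17 by limma at 0.1), Hif1a between the post-hCG sides (-0.10, -0.11 and -0.10 by limma in the same order), hCG on the ruptured side for Arnt (-0.20) and Fam162a (-0.26) under library totals, and the interaction of Egln1 (-0.045 under library totals, -0.063 by limma without a filter), none of them called. Leaving out 1 library, Bnip3 between the sides without hCG ran from -0.13 to 0.11 and Fam162a for hCG on the ruptured side from -0.0029 to 0.14. Members called between the sides without hCG ran from 2 to 4. Genes called ran from 1345 to 1689 and 1601 to 1889 for the sides without hCG and post-hCG, and from 4782 to 4978 and 4947 to 5129 for hCG on the unruptured and ruptured sides. The ratio of Hif1a to Epas1 between the sides without hCG went from 0.12 to -0.27 (pseudocount 0.1), -0.30 (CPM) and -0.10 (medians), and with hCG on the unruptured side it lost its call at 0.66, 0.58 and 0.40; Vegfa to Hif1a without hCG lost it at -1.01, and Egln3 to Egln1 without hCG went from 0.04 to -0.11 (medians). The causes were not tested. Replicate numbers are shared between groups, but same-numbered libraries did not deviate together (lowest r -0.226, medians -0.07 to 0.04, and 1 to 3 of 12 to 14 libraries best matched by their own number), so the numbers were not used to pair samples. Such correlations cannot exclude that same-numbered sides share a follicle, because 2 sides of a follicle need not deviate alike. With a replicate block, 1364, 1729, 4455, 4973 and 969 genes were called for the 5 comparisons in the order above and the interaction, and Bnip3 between the sides without hCG was 0.029. Depth limits Vegfa, Egln1 and Adm most.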

Other observations

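The 3 genes whose log2 CPM most resembled that of Hif1a over the 54 libraries, among 6844 genes, were Tmem50b (Pearson r 0.782), Gfpt2, a hexosamine pathway enzyme gene (0.777), and H2-K1, an MHC class I gene (0.757), while r with Epas1 was 0.304 and with the targets Fam162a and Bnip3 0.03 and -0.03. Like Hif1a, Gfpt2 had its highest median on the putative ruptured side, at 15.1 TPM (8.19 to 36.4), against 5.39 TPM (2.43 to 12.6) on the putative unruptured side. Its medians post-hCG were 11.8 TPM (8.38 to 15.6) on the unruptured and 6.10 TPM (4.15 to 9.15) on the ruptured side. For Epas1 they were Mctp1 (0.785), Hsd11b2, which inactivates glucocorticoids (0.763), and Repin1 (0.763). Hsd11b2 had a median of 15.2 TPM (1.83 to 33.8) on the putative ruptured side and medians of at most 1.16 TPM in the other groups. For Vegfa, whose counts are sparse, they were Mthfd1l (0.534), Pfkl (0.532) and Gpi1 (0.529), and this weak likeness is no finding. These values are given as a description, and the points share library depth and the group structure.

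Of the NDRG family beside Ndrg1, 2 of 3 genes could be tested in each comparison of group pairs. Ndrg2 rose with hCG on the unruptured side (log2FC 0.74 ± 0.10 SE, FDR 1.26e-07 by edgeR) and on the ruptured side (0.42 ± 0.10, FDR 0.000697), and was lower on the ruptured side post-hCG (-0.26 ± 0.09, FDR 0.0294). Its medians were 68.6, 66.3, 119 and 82.9 TPM on the putative unruptured, putative ruptured, unruptured and ruptured sides. Ndrg3 rose with hCG on the ruptured side (0.41 ± 0.13 SE, FDR 0.00744 by edgeR).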
